A study of Homo sapiens with 2 samples.

Results

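The genes of the hypoxia-inducible factors (HIFs) and of their oxygen sensing were looked up in a peak list of HA-tagged regulatory factor X6 (RFX6). They are 9 genes in 5 roles, listed by name for their role, with earlier results of these data known, among 20037 protein-coding genes on the nuclear chromosomes. All 9 were found in the gene table. The list came from chromatin immunoprecipitation followed by sequencing (ChIP-seq) of MHCC-97H cells, a line of human hepatocellular carcinoma (HCC), overexpressing HA-RFX6. The series holds 1 ChIP library and 1 input library of these cells, and neither has a replicate. Only peaks of the ChIP library were used here, and no library of cells without HA-RFX6 was compared. The values thus describe an overexpressed, tagged RFX6 in a single cell line.

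HIF is a pair of proteins. An oxygen-labile alpha subunit (HIF1A, EPAS1 or HIF3A) joins the stable beta subunit ARNT and binds DNA, and the pair switches on genes of glucose uptake, glycolysis, red cell formation and vessel growth. In the presence of oxygen, the prolyl hydroxylases EGLN1, EGLN2 and EGLN3 modify the alpha subunits, VHL then recognises them, and they are degraded. The asparaginyl hydroxylase HIF1AN blocks their contact with coactivators. RFX6 is a transcription factor known from pancreatic islet development, and the RFX family binds a DNA element called the X-box.

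The sequences that carry the result are the promoter windows of 4 genes from RefSeq (GRCh38.p14), each running from 250 bases before a start site to 50 bases after it. EPAS1, EGLN1 and EGLN3 are shown because a peak interval reached into the window, and capitals mark the bases inside the interval. The EPAS1 window lies at chr2:46297157-46297456 on the plus strand, the EGLN1 window at chr1:231422238-231422537 on the minus strand and the EGLN3 window at chr14:33951025-33951324 on the minus strand. VHL is named without a sequence.
EPAS1: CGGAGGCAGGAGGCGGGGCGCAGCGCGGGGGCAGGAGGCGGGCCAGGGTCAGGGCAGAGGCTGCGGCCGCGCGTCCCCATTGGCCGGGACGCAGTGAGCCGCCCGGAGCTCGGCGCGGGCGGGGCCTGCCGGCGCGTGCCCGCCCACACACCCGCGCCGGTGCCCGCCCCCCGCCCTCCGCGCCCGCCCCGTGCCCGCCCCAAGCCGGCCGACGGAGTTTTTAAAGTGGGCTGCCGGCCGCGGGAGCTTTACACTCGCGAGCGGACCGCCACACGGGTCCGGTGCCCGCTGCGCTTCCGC
EGLN1: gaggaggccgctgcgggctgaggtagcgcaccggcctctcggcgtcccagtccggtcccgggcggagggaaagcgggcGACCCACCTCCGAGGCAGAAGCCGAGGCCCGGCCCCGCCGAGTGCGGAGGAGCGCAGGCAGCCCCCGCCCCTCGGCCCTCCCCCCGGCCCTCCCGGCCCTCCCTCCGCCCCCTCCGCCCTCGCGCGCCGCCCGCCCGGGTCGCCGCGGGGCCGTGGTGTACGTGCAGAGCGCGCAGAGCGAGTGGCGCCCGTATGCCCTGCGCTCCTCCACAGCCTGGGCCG
EGLN3: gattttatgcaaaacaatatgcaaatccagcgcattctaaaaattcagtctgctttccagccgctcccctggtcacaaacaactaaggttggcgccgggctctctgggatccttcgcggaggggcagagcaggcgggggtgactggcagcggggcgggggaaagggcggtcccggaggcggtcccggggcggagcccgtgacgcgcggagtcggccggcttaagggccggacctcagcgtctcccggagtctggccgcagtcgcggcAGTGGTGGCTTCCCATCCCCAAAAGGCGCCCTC
HIF3A is shown for contrast, as its window (chr19:46296792-46297091, plus strand) holds RFX-type and CCAAT letters but no interval. Here capitals mark the GTTGCC and CCAAT letters, which share 1 base.
HIF3A: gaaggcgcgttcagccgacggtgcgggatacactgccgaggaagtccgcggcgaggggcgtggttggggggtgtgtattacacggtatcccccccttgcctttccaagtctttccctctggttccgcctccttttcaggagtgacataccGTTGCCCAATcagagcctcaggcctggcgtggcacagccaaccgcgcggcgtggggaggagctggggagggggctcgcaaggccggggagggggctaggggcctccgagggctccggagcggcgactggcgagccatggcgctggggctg

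The first question was which of the 9 genes carried a peak. An interval of the list overlapped 5 of them, EPAS1, ARNT, EGLN1, EGLN3 and VHL. In all 5 the midpoint of an interval was within 1 kb of a gene end. Thus 5 of the 9 members had such an interval, compared with 15.5% of all protein-coding genes. HIF1A, HIF3A, EGLN2 and HIF1AN had none in the gene or in the 2 kb beside it, a rule that 20.3% of protein-coding genes met and the same 5 members met. At least 1 interval lay in or within 25 kb of 7 members (31.1% of all protein-coding genes), with HIF3A and HIF1AN left over. By each rule the share of the 9 genes was above the genome-wide share. As peaks came from 1 list and genes are not replicates, no test was made and no replicate error can be given.

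**Figure D1:**
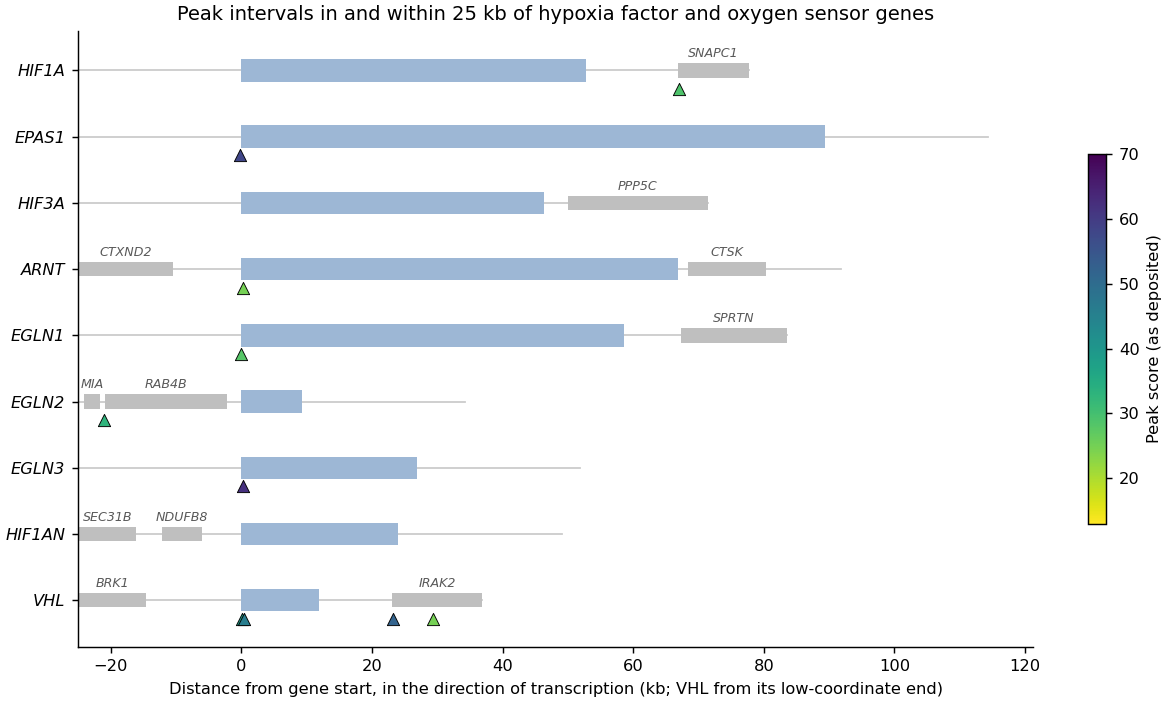
Each row is 1 gene (blue bar) with protein-coding neighbours (grey bars) and peak intervals (triangles, coloured by the deposited score), drawn to scale in kb from the gene start in the direction of transcription, or from the low-coordinate end for VHL. Intervals sit at the left end of EPAS1, ARNT, EGLN1, EGLN3 and VHL, and the others lie at SNAPC1, RAB4B and IRAK2.

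In total, 10 distinct intervals lay in or within 25 kb of the members. Of these, 6 overlapped a member, and for each of the 6 the member was the only protein-coding gene with an end within 1 kb of the midpoint. Across the list, 81.9% of the 3054 intervals at a protein-coding gene end had a single such gene. The other 4 intervals were nearest to an end of a neighbouring gene. The score of the authors, whose meaning is not stated, was used only to rank intervals. It ran from 25 to 62 in the 6 intervals, compared with a median of 30 and a range from 13 to 170 in all 5019 intervals.

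Among the alpha subunits, EPAS1, which encodes HIF-2 alpha, was the only gene with an interval in it. The gene occupies chr2:46297407-46386697 and is 89.3 kb long. Its interval, chr2:46296878-46297629, spanned the start site, with 529 bp before it and 223 bp after it, and covered all 300 bases of the promoter window. It was 752 bp wide, wider than 97.0% of intervals. It stood on 3 lines of the list, with scores of 58, 33 and 13, so the same position carried values on both sides of the list median. By its highest score it ranked 360 of 5019, above 92.3% of intervals. No protein-coding neighbour lay within 25 kb, and the next interval was 156 kb away.

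HIF1A encodes HIF-1 alpha, the subunit most closely tied to the glycolytic response, and no interval lay in it. The gene lies at chr14:61695513-61748258 and is 52.7 kb long. The closest interval, chr14:61762390-61762619, began 14132 bp past the far end of HIF1A. It was 230 bp wide and was listed on 2 lines, both with a score of 29. This interval overlapped SNAPC1, a subunit of the small nuclear RNA activating complex, and its midpoint was 84 bp from an end of that gene. On the other side of HIF1A the list was empty for 972 kb.

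HIF3A, the alpha subunit gene with splice forms that can oppose the others, had no interval within 25 kb. It lies at chr19:46297042-46343433. The nearest interval, of score 22, was 411 kb away, and 29.2% of protein-coding genes were farther from any interval. Its neighbour PPP5C, a protein phosphatase gene 3654 bp away, had no interval either. Among the alpha subunit genes, therefore, a peak was listed at EPAS1, near a neighbour of HIF1A, and nowhere near HIF3A.

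The beta subunit gene ARNT, at chr1:150809713-150876599 on the minus strand, had a single interval, and it was the weakest of the 6. It covered chr1:150876302-150876520, had a width of 219 bp and stood on 1 line with a score of 25. Only 27.9% of intervals scored lower. The interval lay wholly inside the gene and began 79 bp after the start site, so it did not reach the promoter window. The neighbours CTSK, encoding the protease cathepsin K, and CTXND2 had no interval in the gene or 2 kb beside it.

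**Figure D2:**
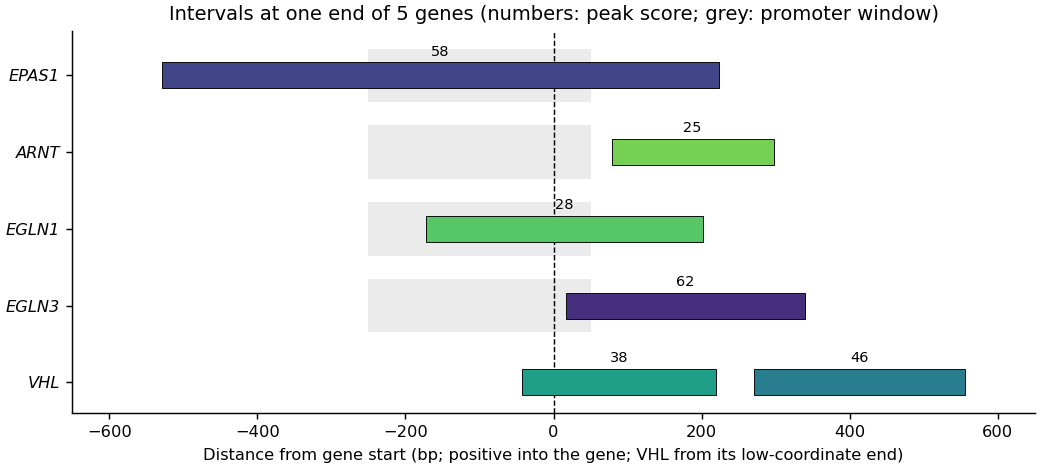
Intervals (bars coloured by score, with the score above) at 5 genes, against distance in bp from the start site (positive into the gene), or from the low-coordinate end for VHL, whose promoter window is not drawn. The EPAS1 and EGLN1 intervals span the start, those of ARNT and EGLN3 begin 79 bp and 17 bp after it, and VHL has 2 intervals.

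The prolyl hydroxylase genes differed from each other. EGLN1 encodes PHD2, the main oxygen sensor of most cells, and lies at chr1:231363756-231422287 on the minus strand. Its interval, chr1:231422086-231422459, was centred 14.5 bp after the start site and covered 222 of 300 bases of the promoter window. It was 374 bp wide, with a score of 28 on 1 line (percentile 42.7). SPRTN, a gene of DNA-protein crosslink repair 8733 bp away, had no interval in it or 2 kb beside it.

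EGLN3 encodes PHD3, itself known as a HIF target gene, and had the highest score among the 6 intervals. The gene lies at chr14:33924227-33951074 on the minus strand. Its interval, chr14:33950735-33951057, had a score of 62 on 1 line and ranked 252 of 5019, above 94.6% of intervals. It was 323 bp wide, began 17 bp after the start site and covered the last 33 bases of the promoter window. No other protein-coding gene lay within 25 kb, and the next interval was 589 kb away.

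EGLN2, which encodes PHD1, had no interval in its 9.24 kb (chr19:40799191-40808434). The interval closest to it, chr19:40778051-40778390, ended 20801 bp before the start site. It was 340 bp wide and stood on 2 lines with the same score of 33. Its midpoint was 26 bp from an end of RAB4B, a small GTPase gene, and within 1 kb of an end of MIA. It also overlapped the non-coding readthrough genes MIA-RAB4B and RAB4B-EGLN2, the latter named after RAB4B and EGLN2. On the other side of EGLN2, the nearest interval was 1625 kb away.

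HIF1AN, which encodes the asparaginyl hydroxylase FIH, had no interval within 25 kb. It lies at chr10:100535943-100559998. The nearest interval was 189 kb away, was 200 bp wide and had a score of 19. Neither SEC31B nor NDUFB8, the protein-coding neighbours within 25 kb, had an interval.

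VHL, the recognition subunit of the ubiquitin ligase, was the only member with more than 1 interval in the gene. It lies at chr3:10141778-10153667. The interval chr3:10141736-10141996 spanned its low-coordinate end and had a score of 38 on 1 line. A second interval, chr3:10142049-10142333, followed after a gap of 52 bp, wholly inside the gene, with a score of 46 on 1 line (percentile 83.1). When intervals closer than 1 kb were merged, they became 1. At least 2 interval midpoints within 1 kb of an end were found for 2.33% of all protein-coding genes.

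The remaining intervals in the VHL window belonged to IRAK2, a kinase gene of interleukin-1 receptor signalling. The interval chr3:10164615-10165372, 10948 bp past VHL, was 758 bp wide and stood on 3 lines with scores of 52, 42 and 40. The interval chr3:10170982-10171221, with a score of 25, lay inside IRAK2, 6182 bp from its nearer end. These mark how far the window of 25 kb reaches. The farthest interval inside the window of any member was the one 20801 bp from EGLN2, and the closest beyond it was 26.8 kb from VHL, with a score of 14.

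**Figure D3:**
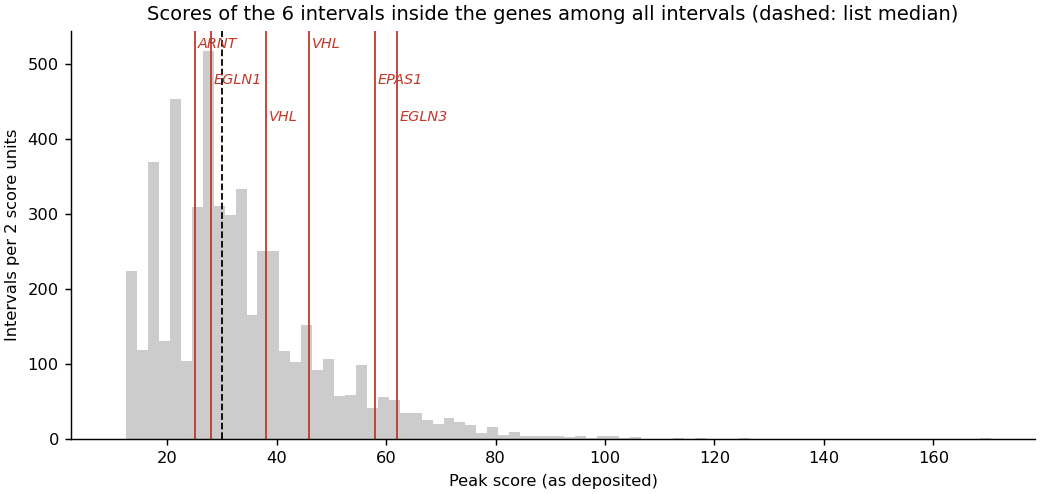
Histogram of the deposited score of all 5019 intervals (bins of 2 units) with the 6 intervals inside the genes as red lines and the list median of 30 as a dashed line. ARNT (25) and EGLN1 (28) lie below the median, and VHL (38 and 46), EPAS1 (58) and EGLN3 (62) above it.

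The position of the intervals within the gene was then compared with the rest of the list. The start site was known for 8 members, all but VHL, and an interval was within 1 kb of it for 4 of the 8, compared with 16.3% of the 15843 protein-coding genes with a start in the promoter table. The midpoint was 154 bp before the start site in EPAS1, and after it in the other 3, by 14.5 bp in EGLN1, 178 bp in EGLN3 and 188 bp in ARNT. Of all 2696 intervals within 1 kb of a protein-coding start, 57.6% had the midpoint within 200 bp of it and 59.9% had the midpoint after it. All 4 member midpoints were within 200 bp.

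**Figure D4:**
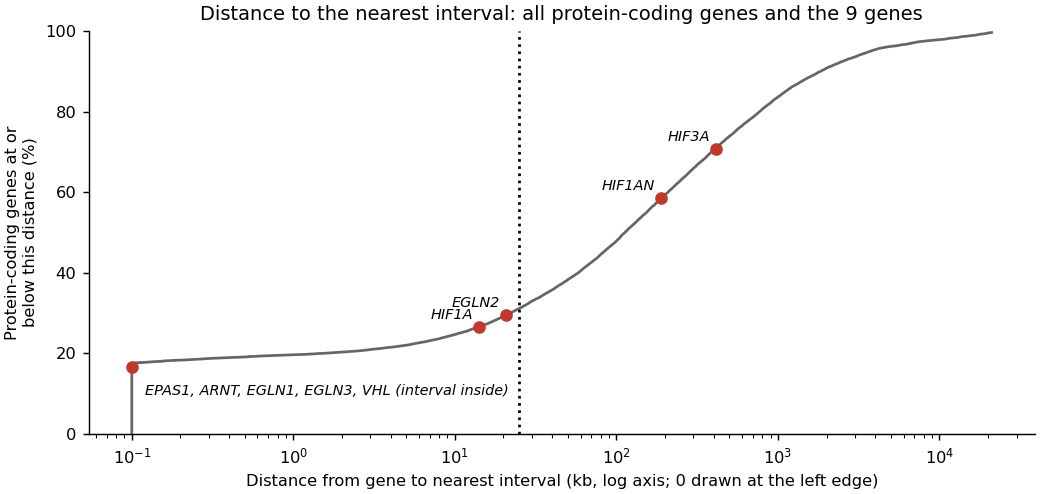
Cumulative share of all 20037 protein-coding genes (y axis, %) by distance from the gene to the nearest interval (x axis, kb, log scale, 0 drawn at the left edge), with the 9 genes as red points and the 25 kb window as a dotted line. The points are at 14.1 kb for HIF1A, 20.8 kb for EGLN2, 189 kb for HIF1AN and 411 kb for HIF3A, and 5 genes have an interval inside.

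The members lie on 6 chromosomes, and the share of protein-coding genes with an interval at an end differed between these. It was 21.7% on chromosome 3 (VHL), 19.7% on chromosome 14 (HIF1A and EGLN3), 13.9% on chromosome 1 (ARNT and EGLN1), 13.7% on chromosome 2 (EPAS1), 13.2% on chromosome 10 (HIF1AN) and 9.72% on chromosome 19 (HIF3A and EGLN2). Neither member on chromosome 19, which had the lowest share of these, had an interval in the gene. On chromosome 14, EGLN3 had an interval and HIF1A had none. The part of the chromosome in the result was not tested.

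The promoter windows were also compared by their letters. EPAS1 and EGLN1 both had a GC content of 80.0%, with 47 and 42 CG dinucleotides, against a median of 58.7% and 14 over 35116 promoter windows. EGLN3 (65.0%, 27 CG) and ARNT (66.7%, 25 CG) were lower. Windows without an interval reached similar values, namely 76.3% and 44 CG at the first start of EGLN2 and 73.0% and 31 CG at the first start of HIF1A, while HIF1AN had 58.0% and 20 CG. Base composition of the window thus overlapped between members with and without an interval.

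Motifs were searched on both strands of the 12 windows of the 8 members. The X-box, searched as the arms GTNNCC and GNAAC with 3 bases between them and found in 2.28% of all windows, was in none of these 12. Other spacings of the arms were not searched. The hexamer GTTGCC, a form of the first arm found in 12.2% of all windows, was in the HIF3A window shown above and in a window at the second start of HIF1A, neither of which had an interval. The inverted CCAAT box ATTGG (34.6% of all windows) was found in windows of HIF1A, EPAS1, HIF3A and ARNT. Of the cores bound by HIF, ACGTG (21.4% of all windows) was found in EGLN1, inside its interval, and in EGLN2, where it lay in the palindrome CACGTG and was counted on both strands. The other core, GCGTG (36.5%), was found in EPAS1, inside its interval, in HIF1A and in HIF3A. Such matches describe the letters of these windows and not of whole intervals. The interval of ARNT and most of that of EGLN3 lay outside the windows searched. The windows held 300 bases of the 752 bp EPAS1 interval and 222 bases of the 374 bp EGLN1 interval. For VHL no window was available to search.

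Finally, other genes of the pathway were examined in 5 lists with 80 genes in all, every one found in the gene table. An interval lay in the gene or 2 kb beside it for 35 of the 80 (43.8%), compared with 20.3% of all protein-coding genes, and at a gene end for 30 (37.5%, compared with 15.5%). The share differed from list to list. The lists were written from general knowledge, and PGAM1, GAPDH and HK1 in them were known to have an interval. Whether ends of other genes also lay at the intervals was not examined for the lists.

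VHL works in a complex with elongins, a cullin and a RING protein. An interval was at a gene end for 3 of these 4 partner genes (75%, against 15.5% genome-wide). ELOB had an interval of score 22 (chr16:2776969-2777254), ELOC of score 32 (chr8:73971947-73972178), and RBX1 of scores 34 and 22 on its lines (chr22:40951192-40951873). CUL2 had none in the gene or 2 kb beside it. The highest scores of the 3 partner genes ran from 22 to 34. A list of 4 genes is too short for its share to be read as a trait of the ligase.

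Of the 12 relatives and partners of ARNT and the alpha subunits in the bHLH-PAS family, 4 had an interval in the gene or 2 kb beside it (33.3%, against 20.3% genome-wide) and 3 at an end (25%, against 15.5%). NPAS2, a clock factor, had the strongest, with a score of 78 (percentile 98.7). AHRR, the repressor of the aryl hydrocarbon receptor, had 10 intervals, 1 at its start with a score of 16 and 9 inside the gene with scores from 16 to 48. SIM2 had a score of 17 at an end, and ARNT2, the closest relative of ARNT, had a score of 19 away from both ends. The genes AHR, CLOCK, BMAL1, BMAL2, SIM1, NPAS1, NPAS3 and NPAS4 of this list had none.

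Of 17 regulators and coactivators of HIF, 7 had an interval, and in all 7 it was at a gene end (41.2%, against 15.5% genome-wide). P4HTM, a prolyl hydroxylase of the endoplasmic reticulum related to the EGLN proteins, had an interval of score 70 (chr3:48989758-48990142), centred 42 bp after a start site, and another of score 48 near its far end. USP20, a deubiquitinase that stabilises HIF-1 alpha, had scores of 61 and 18 on its lines, and the chaperone gene HSP90AA1 had 45 on both. OS9, HSP90AB1, SART1 and the coactivator gene CREBBP had scores of 33, 30, 21 and 13, whereas EP300, the partner of CREBBP as a coactivator, had no interval in it.

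Of 20 HIF target genes of glycolysis and glucose supply, 7 had an interval in the gene or 2 kb beside it (35.0%, against 20.3% of all protein-coding genes). At a gene end 4 had one (20%), which was near the genome-wide 15.5%. PDK1, a kinase that inhibits pyruvate dehydrogenase, had the highest score of any gene in these lists, 89 (percentile 99.5). Its interval of 926 bp at chr2:172555563-172556488 stood on 4 lines with scores of 89, 89, 66 and 66. The glucose transporter gene SLC2A1 had an interval of score 30 with its midpoint 881 bp from a gene end and 34396 bp from the nearest annotated start site. PFKFB3, which makes the activator of phosphofructokinase, had a score of 39 at an internal start, and PFKFB4 had a score of 17 inside the gene. GAPDH had highest scores of 33 in both its intervals and PGAM1 of 26. HK1 had a score of 25, with the midpoint 169 bp before an annotated start and 48895 bp from the nearer gene end. LDHA, HK2, PGK1, ALDOA, ENO1 and PKM, which are further targets in this list, had none.

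Of 27 other HIF target genes, 14 had an interval in the gene or 2 kb beside it, which was 51.9%, against 20.3% genome-wide, and 13 had it at a gene end (48.1%, against 15.5%). The strongest was at BHLHE40, a transcriptional repressor, with scores of 86, 86, 19 and 19 on the lines of chr3:4978485-4979331. P4HA1 and P4HA2, prolyl hydroxylases of collagen, followed with 69 and 68. NDRG1 had a score of 59, DDIT4, an inhibitor of mTOR signalling, 48, and STC2 45. The mitophagy gene BNIP3 had 2 intervals at an end, of scores 35 and 25, and its relative BNIP3L had 1 of score 17. Lower scores of 24 and 13 were found at CXCR4 and TFRC. CA12, PLOD2 and BHLHE41 had scores of 33, 34 and 32, and ADM had 34 and 15 in separate intervals. VEGFA, EPO, CA9 and ANGPTL4 had none in the gene or 2 kb beside it.

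**Figure D5:**
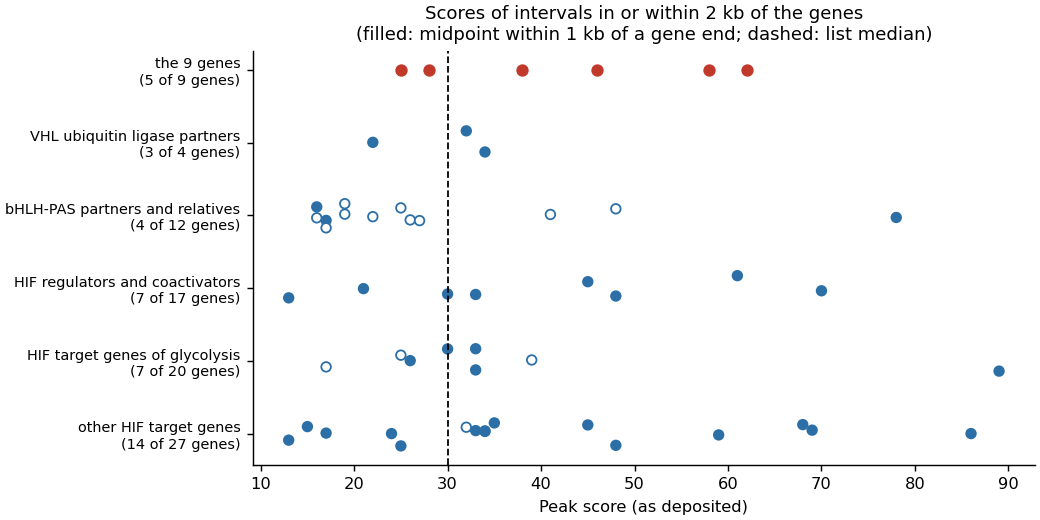
Deposited score (x axis) of each interval in or within 2 kb of the genes of 5 pathway lists (blue, filled where the midpoint is within 1 kb of a gene end) and of the 9 genes (red), with vertical scatter only to part the points and the list median of 30 dashed. The 6 intervals of the 9 genes, from 25 to 62, lie within the range of the lists, which reach 89 at PDK1.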

How the data were processed

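Peaks were called by the authors with MACS2 2.1.0.2 at a q-value threshold of 0.01, on 1 anti-HA ChIP library. The aligner, the handling of multiply mapped reads and the use of the input are not given in the sources used here. The authors deposited a list of 6214 lines without a header, giving position, name and a whole-number score of unstated meaning. Read depth was unknown. Lines with the same position were counted once with the highest score (5022 intervals), and 3 mitochondrial intervals were set aside. The start and end of 1 line were rejoined from split digits. Starts were taken as 0-based and are given 1-based. The notes of the submitters name GRCh37, but the coordinates matched GRCh38. Of 4866 intervals on 23 chromosomes, 55.4% had the midpoint within 1 kb of a RefSeq GRCh38.p14 protein-coding start, against 3.53% when intervals were moved down by 20 kb and 3.56% when moved up. Coordinates are therefore given in GRCh38.

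Genes came from a RefSeq table without strand or exons, and start sites and strand from a RefSeq promoter table. A gene was counted when an interval overlapped it or its flank by at least 1 bp, or when a midpoint was within 1 kb of an end. Distances are differences of coordinates, and percentiles give the share of intervals with a lower value. Named genes were the members, genes at their intervals and listed pathway genes with an interval, and a few genes and neighbours without one were named after their values were seen. The members and lists were chosen with earlier results of these data known. Lookups were tested on simulated data and done in Python 3.11.15 with numpy 2.4.6 and pandas 2.3.3, and plots in matplotlib 3.10.9. Alternatives were score minimums of 30 and 20, merging, other windows and other assignment rules.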

Additional observations from a re-analysis of the deposited data

How the results depend on the processing

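The score minimum moved the counts most. With a score of at least 30, the list median, 3 members (EPAS1, EGLN3 and VHL) in place of 5 had an interval at a gene end and also in the gene or 2 kb beside it, and 4 in place of 7 had one within 25 kb. The intervals in and within 25 kb fell from 10 to 6, and the median distance to the nearest interval went from 0 to 122577 bp, since ARNT and EGLN1 lost theirs. The genome-wide shares at this minimum were 9.5% at an end, 12.5% in the gene or 2 kb beside it and 20.6% within 25 kb. Within 10 kb there were 6 intervals. Counting every line within 25 kb gave 16. The other alternatives kept each count within 1.5 times. For the related lists the count of 35 ranged from 24 to 37. No paired analysis was possible because the series has a single ChIP library, and no replicate could be left out. Read depth was unknown, so for HIF1A, HIF3A, EGLN2 and HIF1AN it can only be said that no interval was listed.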
